A study of Mus musculus with 8 samples.

Results

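The nuclear genes for mitochondrial ribosomal proteins were followed through a sort of mouse intestinal crypt cells. They were taken as all genes whose symbol starts with Mrpl or Mrps and a number and that had a probe set naming that gene alone. This gave 76 of the 18193 genes measured, 47 Mrpl genes of the large subunit and 29 Mrps genes of the small subunit. RefSeq lists 78 protein-coding genes of this name, and Mrpl30 and Mrpl53 were not measured because their probe sets also name another gene. Each gene is represented by the probe set with the highest mean over the 6 EphB2 arrays, and no gene was removed for a dim signal. All 76 genes were brighter than the median of all genes on every array.

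All cells were crypt cells from intestines of C57BL/6 mice, sorted by flow cytometry. An antibody to EphB2, a receptor that is most abundant on cells at the bottom of the crypt, gave EphB2 High, EphB2 Medium and EphB2 Low cells, with 2 arrays each. A green fluorescent reporter knocked into Lgr5, a marker gene of stem cells at the crypt base, gave Lgr5 High and Lgr5 Low cells, with 1 array each, from mice that carry this allele. The labels give replicate 1 of all EphB2 groups one hybridization date, replicate 2 another and the Lgr5 arrays one of their own, and arrays of one date are called a hybridization here. RNA was amplified before labelling, and values are normalized log2 signals, so a difference of 1 is a 2-fold difference. No label tells if RMA was run on both sorts at once. No Lgr5 array had a value identical to one of an EphB2 array for the same probe set, while pairs of EphB2 arrays shared 0.0909% to 0.273% of their values and the Lgr5 pair 0.175%. Levels set side by side across the sorts are open to this. Nothing in the labels tells whether the 2 arrays of a group stand for different animals, or whether animals were pooled. The p-values therefore rest on a spread that may be technical.

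The labelled cell type was checked with marker genes. The 8 epithelial markers were bright on all arrays, with a summed signal between 94118 and 106147. The 4 crypt base markers summed to 17656 and 20007 in EphB2 High cells, 13334 and 14107 in EphB2 Medium cells and 6449 and 4689 in EphB2 Low cells. The 6 measured enterocyte markers ran the other way, with 26978 and 28122 in EphB2 High cells, 50988 and 52782 in EphB2 Medium cells and 92601 and 93982 in EphB2 Low cells. In the Lgr5 sort the crypt base sum was 24456 in Lgr5 High and 15932 in Lgr5 Low cells, and the enterocyte sum was 18229 in Lgr5 High and 68379 in Lgr5 Low cells. Summed signals of other cells stayed between 145 and 179 for 6 lymphocyte markers, 194 and 458 for 5 myeloid markers, 123 and 156 for 7 stromal and endothelial markers, and 20 and 29 for 2 red blood cell markers. Of these markers of other cells, Cd68, a lysosomal protein of macrophages, was the exception that passed the test, at 8.42 and 7.75 in EphB2 High cells and 7.05 and 6.24 in EphB2 Low cells (1.44 ± 0.40, limma adjusted p = 0.0361). The part of these shifts in cell makeup in the results that follow was not tested, and fewer cells of a type cannot be told apart from less RNA per cell.

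Mitochondria carry their own ribosome, built from RNA encoded in mitochondrial DNA and from proteins that are all encoded in the nucleus, made in the cytosol and imported. It translates the few membrane proteins of the respiratory chain and the ATP synthase that mitochondrial DNA still encodes. Many of its proteins descend from bacterial ribosomal proteins, and others are found only in mitochondria. The small subunit binds the messenger and holds the decoding centre, and the large subunit forms peptide bonds and carries the exit tunnel, through which the new chain reaches the inner membrane. Intestinal stem cells and their dividing progeny at the crypt base are known to depend on mitochondrial activity, and absorptive enterocytes are rich in mitochondria.

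RefSeq promoter windows, from 250 bases before to 50 bases after the start of transcription, were at hand for 67 of the 76 genes. The stretches below run from 160 bases before to 20 bases after the start and show motifs of factors known to act on nuclear genes of mitochondria. Mrps26 and Mrps22 are among the small subunit genes with the largest difference described below, Mrps18a, Mrps18b and Mrps18c are paralogs, and Mrpl12 encodes the stalk protein of the large subunit. Capitals mark the letters of NRF1 (GCGCA, any base, then GCGC), ETS factors such as GABP (CCGGAAG) and YY1 (AAGATGGC), searched on both strands. Coordinates are those of build GRCm38.p6, and each sequence is written 5′ to 3′ on the strand of its gene: chr2:130563597-130563776 (+), chr9:98601660-98601839 (-), chr17:46110844-46111023 (+), chr17:35916421-35916600 (-), chr5:100798599-100798778 (+) and chr11:120484477-120484656 (+).
Mrps26: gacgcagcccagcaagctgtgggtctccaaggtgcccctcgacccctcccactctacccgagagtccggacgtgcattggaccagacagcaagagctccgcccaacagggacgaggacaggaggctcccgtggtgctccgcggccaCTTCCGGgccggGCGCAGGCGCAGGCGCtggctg
Mrps22: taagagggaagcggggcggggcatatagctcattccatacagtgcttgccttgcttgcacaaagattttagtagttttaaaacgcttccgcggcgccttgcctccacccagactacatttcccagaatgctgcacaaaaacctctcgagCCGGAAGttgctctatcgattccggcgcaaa
Mrps18a: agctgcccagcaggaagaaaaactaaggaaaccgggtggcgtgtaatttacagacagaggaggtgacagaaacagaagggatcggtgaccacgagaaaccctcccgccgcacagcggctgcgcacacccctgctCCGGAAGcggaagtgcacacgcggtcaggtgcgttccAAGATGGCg
Mrps18b: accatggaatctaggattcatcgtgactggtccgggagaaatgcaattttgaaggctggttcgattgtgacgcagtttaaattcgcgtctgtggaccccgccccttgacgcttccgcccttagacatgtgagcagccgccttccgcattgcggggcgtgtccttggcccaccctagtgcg
Mrps18c: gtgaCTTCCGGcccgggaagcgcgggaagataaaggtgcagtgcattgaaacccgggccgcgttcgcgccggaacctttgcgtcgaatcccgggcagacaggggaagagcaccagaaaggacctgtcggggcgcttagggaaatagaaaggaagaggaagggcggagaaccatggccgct
Mrpl12: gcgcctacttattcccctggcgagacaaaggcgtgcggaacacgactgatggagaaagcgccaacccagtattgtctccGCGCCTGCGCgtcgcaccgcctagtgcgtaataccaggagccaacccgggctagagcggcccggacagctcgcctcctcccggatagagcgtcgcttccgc

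The Mrps26 stretch holds a pair of NRF1 matches that overlap each other, from -2 to 8 and from 5 to 14 counted from the start with no position 0, and an ETS match from -14 to -8. Mrps22 has an ETS match from -11 to -5, and Mrps18a has an ETS match from -26 to -20 and a YY1 match from 12 to 19. The Mrps18c match lies farther out, from -156 to -150, the match in Mrps18b lies past the stretch, from 44 to 50, and Mrpl12 has an NRF1 match from -81 to -72. The 67 genes have 73 windows, and a gene was counted once if any of its windows held the letters. The ETS letters were found for 25 of the 67 genes (37.3%), against 15.0% of the 14452 measured genes with a window. The NRF1 letters were found for 12 (17.9%, against 8.61%) and the YY1 letters for 12 (17.9%, against 4.07%). The other 5 motifs searched were no more frequent among these genes than among all measured genes with a window. They were the E-box (CACGTG, 7.46% against 10.2%), CCAAT (38.8% against 42.0%), the GC box (GGGGCGGGG, 19.4% against 20.3%), TATAAA (7.46% against 11.5%) and the ERR motif (TCAAGGTCA, none against 0.401%). Among genes called higher in EphB2 High than in EphB2 Low cells, as described next, the ETS letters were found for 11 of 26, against 14 of 41 genes not called. The YY1 letters were found for 6 of 26 called genes, against 6 of 41, and the NRF1 letters for 1 of 26, against 11 of 41. These are letter matches and were not tested as binding sites.

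Between EphB2 High and EphB2 Low cells, 30 of the 76 genes rose, none fell and 46 did not pass the test. The test was limma with an adjusted p below 0.05 after Benjamini-Hochberg adjustment over all genes. The 30 are 39.5% of the group, beside 22.0% of all genes called higher and 15.3% called lower. The median difference was 0.35 on the log2 scale (1.27-fold), beside 0.01 for all genes, and single genes lay between -0.35 and 1.02. The differences were small: called genes rose 1.28-fold to 2.03-fold, 8 of them by at least 1.5-fold and 1 by at least 2-fold. Both EphB2 High arrays were above both EphB2 Low arrays for 59 of the 76 genes, beside 36.4% of all genes, and both were below for 5, beside 31.7%.

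The number of calls changed when single arrays were left out and with scaling. Without EphB2 High replicate 1 or 2 it was 6 or 7, without either EphB2 Medium array 18, without EphB2 Low replicate 1 it was 26 and without EphB2 Low replicate 2 it was 10. Of all genes, 15.9% and 13.6% were called higher without the first and second EphB2 High array, 19.9% without the first and 16.5% without the second EphB2 Low array, and 3639 of the 18193 without either Medium array. The share of the 76 genes was below that of all genes when the first (7.89%) or second (9.21%) EphB2 High array or the second EphB2 Low array (13.2%) was left out, and above it without either EphB2 Medium array (23.7%) and without EphB2 Low replicate 1 (34.2%). So the larger share of calls in the group than in all genes did not hold without either EphB2 High array or without the second EphB2 Low array. For this comparison the fit is the same whichever EphB2 Medium array is left out. Each fit with an array left out also has fewer than the 3 residual degrees of freedom of the main fit. Loss of calls through this cannot be told apart from dependence on the array. The group's median stayed between 0.31 and 0.37 with an array left out. Bright genes are called more often here: over the 9097 genes at or above the median level, 47 of the 76 genes were called higher and 1 lower, beside 36.8% of those genes called higher. Centring each array on the median of its genes, an alternative added after the data were seen, moved the median of all genes to -0.28 and left 4 genes higher and 3 lower, with a median of 0.06 over the 76. The 4 are 5.26% of the group, beside 14.8% of all genes called higher, so the share was below that of all genes here too. Centring moves all genes of an array alike, so by construction the group's median is 0.34 above that of all genes with and without it.

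**Figure D1:**
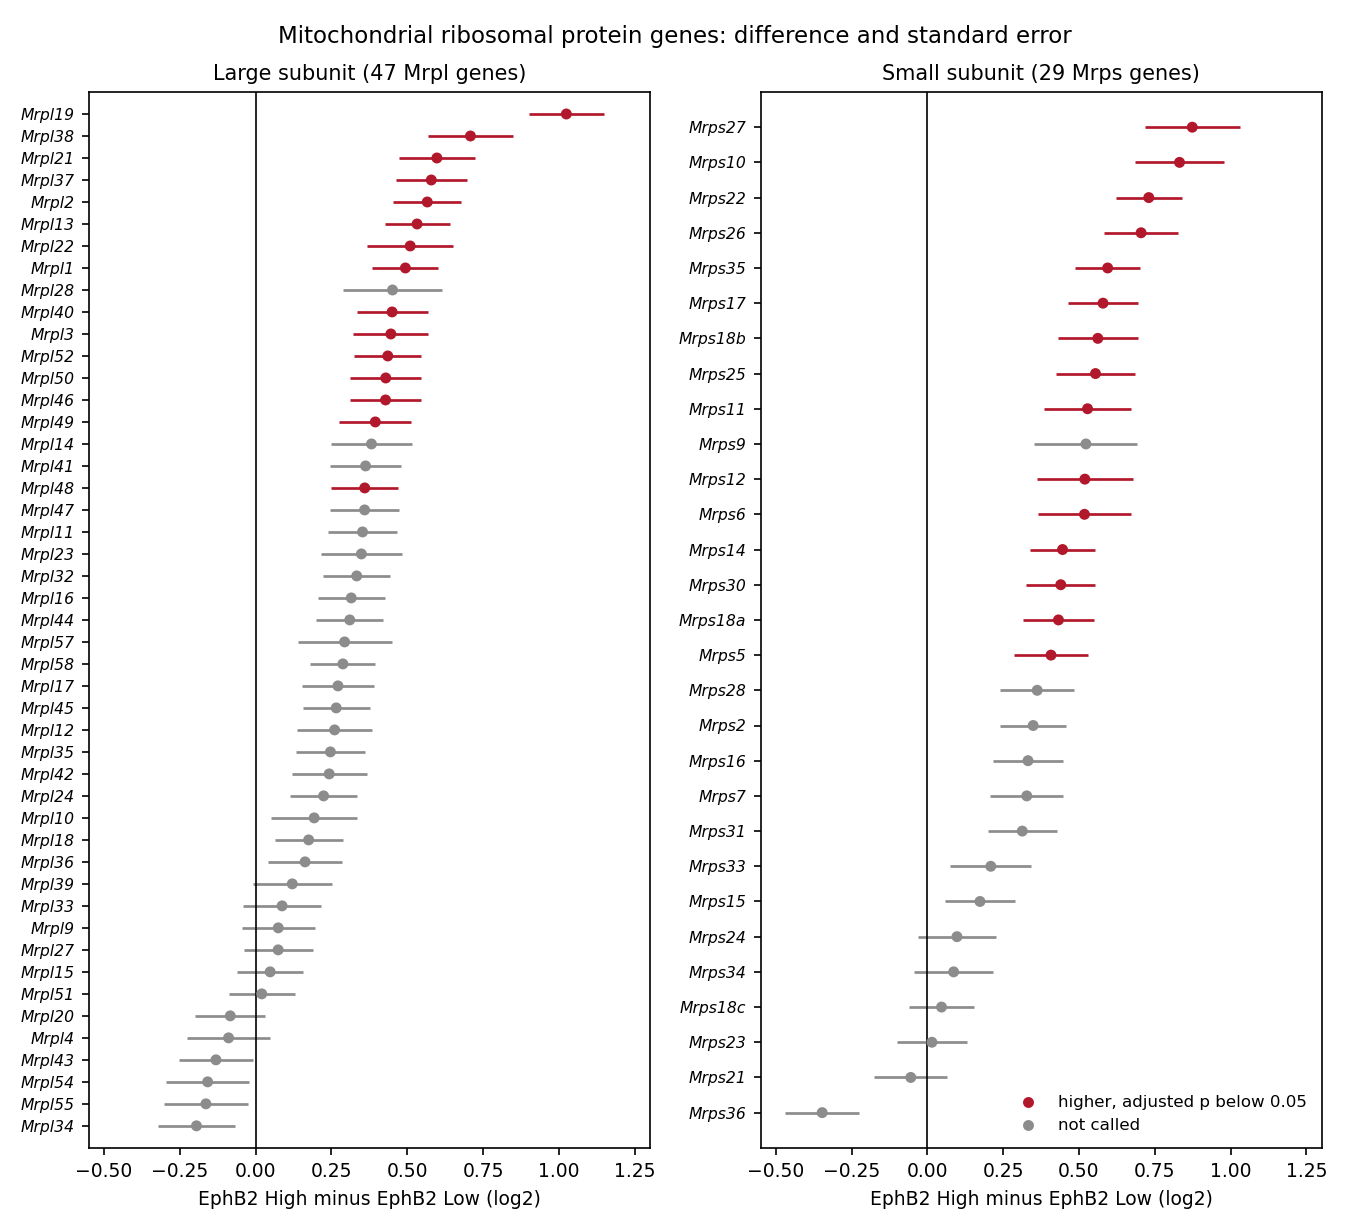
Difference between EphB2 High and EphB2 Low cells (log2, points) with limma's standard error (bars) for the 47 large subunit genes and the 29 small subunit genes, sorted by size. Genes called higher are red: 15 in each subunit, from Mrpl19 at 1.02 downwards, and no gene was called lower.

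Among large subunit genes, Mrpl19 had the largest difference of all 76. It encodes the counterpart of a bacterial protein at the interface of the subunits. Its log2 signal was 11.65 and 11.51 in EphB2 High cells, 11.36 and 11.26 in EphB2 Medium cells and 10.62 and 10.48 in EphB2 Low cells, a difference of 1.02 ± 0.12 between High and Low (SE, 2.03-fold, limma adjusted p = 0.00207). The 3 groups did not overlap and ran from High to Low in order. The Lgr5 arrays did not show this gap, with 11.32 in Lgr5 High and 11.25 in Lgr5 Low cells.

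Mrpl38, a mitochondria-specific protein of the central protuberance, had 11.30 and 11.07 in EphB2 High cells, 11.10 and 10.90 in EphB2 Medium cells and 10.53 and 10.43 in EphB2 Low cells. It rose by 0.71 ± 0.14 between High and Low (limma adjusted p = 0.0105), while the High and Medium arrays overlapped. Mrpl21, with a bacterial counterpart, rose by 0.60 ± 0.12, and mitochondria-specific Mrpl37 by 0.58 ± 0.12. Mrpl2, the counterpart of a bacterial protein next to the peptidyl transferase centre, rose by 0.57 ± 0.11, and Mrpl13 by 0.53 ± 0.11, each with arrays of High above those of Low.

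In the small subunit, Mrps27, a mitochondria-specific protein with pentatricopeptide repeats, had 10.58 and 10.59 in EphB2 High cells, 10.42 and 10.47 in EphB2 Medium cells and 9.91 and 9.52 in EphB2 Low cells. It rose by 0.87 ± 0.16 (1.83-fold, limma adjusted p = 0.00766), and the EphB2 Low arrays lay furthest apart from each other. Mrps10, the counterpart of a bacterial protein of the small subunit head, had 11.12 and 11.29 in EphB2 High cells, 10.99 and 11.04 in EphB2 Medium cells and 10.52 and 10.22 in EphB2 Low cells (0.83 ± 0.15, limma adjusted p = 0.00708). All 3 groups were apart for both genes.

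Mrps22, a mitochondria-specific protein whose gene is mutated in some human mitochondrial disease, had 12.16 and 12.17 in EphB2 High cells, 12.15 and 12.07 in EphB2 Medium cells and 11.47 and 11.40 in EphB2 Low cells. It rose by 0.73 ± 0.11 (limma adjusted p = 0.00399), and its Medium arrays lay next to its High arrays. Mrps26, also mitochondria-specific, had 11.98 and 11.89 in EphB2 High cells, 11.77 and 11.63 in EphB2 Medium cells and 11.30 and 11.15 in EphB2 Low cells (0.70 ± 0.12, limma adjusted p = 0.00690), with the groups apart. Mrps35 rose by 0.59 ± 0.11 and Mrps17, with a bacterial counterpart, by 0.58 ± 0.12. Of all 30 calls, those of Mrpl19, Mrps10, Mrps22 and Mrps27 held under all 14 alternatives run, and that of Mrps26 also held whichever array was left out.

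The genes at the low end of the range did not pass the test. The lowest was Mrps36, whose product, in spite of its name, is now placed in the α-ketoglutarate dehydrogenase complex of the citric acid cycle. It had 12.06 and 11.93 in EphB2 High cells, 12.17 and 12.00 in EphB2 Medium cells and 12.32 and 12.36 in EphB2 Low cells (-0.35 ± 0.12, limma adjusted p = 0.0738). Its High and Low arrays did not overlap, and it was called lower with dim genes removed and with an intensity trend in the fit. In the large subunit Mrpl34 was at -0.20 ± 0.13, Mrpl55 at -0.16 ± 0.14 and Mrpl54 at -0.16 ± 0.14. In the small subunit Mrps21 was at -0.05 ± 0.12 and Mrps23 at 0.02 ± 0.12. With arrays centred on the median of their genes, Mrps36, Mrpl34 and Mrpl54 were the 3 genes called lower.

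The subunits were set side by side. In the large subunit 15 of 47 genes rose (31.9%) with a median of 0.31, and in the small subunit 15 of 29 (51.7%) with a median of 0.43, a gap of -0.12 between the medians. The gap was -0.04 without EphB2 Low replicate 2 and between -0.16 and -0.10 without any other array. Within the first hybridization the medians were 0.30 for large and 0.38 for small subunit genes, and within the second 0.30 and 0.47. The mean level of large less small subunit genes was 0.09 and 0.08 in EphB2 High cells, 0.09 and 0.11 in EphB2 Medium cells, and 0.14 and 0.23 in EphB2 Low cells. The second EphB2 Low array was the highest of the 6. On the Lgr5 arrays this value was 0.11 in Lgr5 High and 0.12 in Lgr5 Low cells. Genes of a complex are not replicates, so no test was made between the subunits. The calls were also unsteady here: with single arrays left out, 1 to 10 large subunit genes and 4 to 16 small subunit genes were called higher, beside 2476 to 3639 of the 18193 genes.

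**Figure D2:**
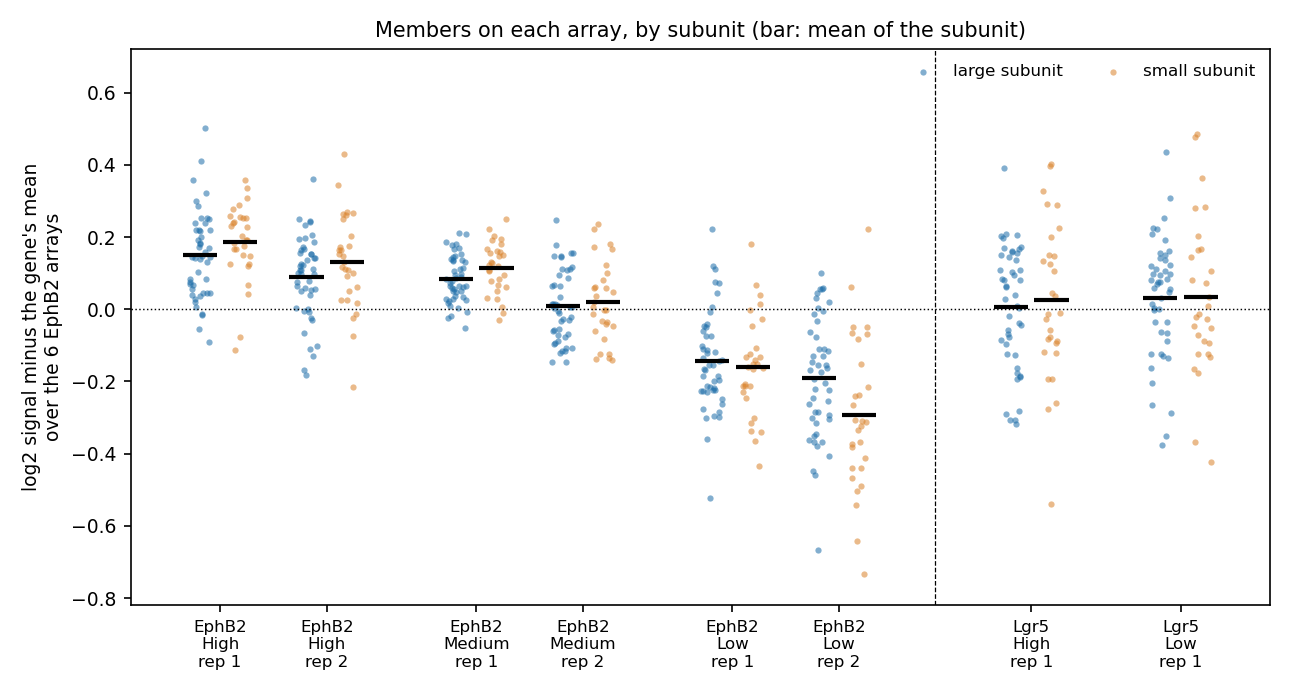
Log2 signal of each gene on each array, less the gene's own mean over the 6 EphB2 arrays, for large (blue) and small (orange) subunit genes, with the mean of each subunit as a bar. The bars of large and small subunit genes are highest on EphB2 High replicate 1 (0.15 and 0.19), lowest on EphB2 Low replicate 2 (-0.19 and -0.29), and lie between 0.01 and 0.03 on the Lgr5 arrays, which may have been normalized apart from the EphB2 arrays.

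Structures of the mammalian ribosome place the products of Mrps30 and Mrps18a in the large subunit. With these moved and Mrps36 left out, 17 of 49 large subunit genes (median 0.32) and 13 of 26 small subunit genes (median 0.43) rose. By descent, 14 of 45 genes with a bacterial counterpart rose (median 0.33), and 16 of 30 genes found only in mitochondria (median 0.38). In the large subunit 8 of 18 mitochondria-specific genes rose (44.4%, median 0.34), against 7 of 29 others (24.1%, median 0.27). In the small subunit it was 8 of 12 (66.7%, median 0.50) against 7 of 16 (43.8%, median 0.38). Of all genes 22.0% were called higher, which is near the 24.1%. This split was not tested, and calls in both subunits changed when arrays were left out.

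Of the 3 paralogs related to the bacterial protein S18, 2 passed the test. Mrps18b, of the small subunit, had 12.91 and 12.86 in EphB2 High cells, 12.87 and 12.80 in EphB2 Medium cells and 12.45 and 12.19 in EphB2 Low cells (0.56 ± 0.13, limma adjusted p = 0.0196). Mrps18a, of the large subunit in structures, had 11.86 and 11.77 in EphB2 High cells, 11.70 and 11.61 in EphB2 Medium cells and 11.45 and 11.31 in EphB2 Low cells (0.43 ± 0.12, limma adjusted p = 0.0336). Mrps18c, also of the small subunit, was nearly level, with 12.33 and 12.30 in EphB2 High cells, 12.27 and 12.27 in EphB2 Medium cells and 12.30 and 12.24 in EphB2 Low cells (0.05 ± 0.11, limma adjusted p = 0.778). High and Low arrays were apart for all 3 genes, but for Mrps18c by a narrow margin. The differences between the paralogs were not tested against each other.

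Other genes of known role were spread through the range. Mrps30 rose by 0.44 ± 0.11 (limma adjusted p = 0.0275). The stalk protein gene Mrpl12 was at 0.26 ± 0.12, Mrpl58, for a peptidyl-tRNA hydrolase built into the large subunit, at 0.29 ± 0.11, Mrpl57 at 0.29 ± 0.15 and Mrpl36 at 0.16 ± 0.12, and none of these 4 passed the test. Signals of different probe sets cannot be ranked as RNA levels, and calls were found among the brightest and among the dimmest genes. Of the brightest, Mrpl52 and Mrps18b were among the genes called, while Mrpl51 (0.02 ± 0.11) and Mrps31 (0.31 ± 0.11) were not. Of the dimmest, Mrps27 and Mrps5 were called, while Mrpl54 and Mrpl10 (0.19 ± 0.14) were not.

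In all, 42 of the 76 genes had more than 1 probe set. Of their 80 further probe sets, 14 had a difference between EphB2 High and EphB2 Low cells of the opposite sign to the one used, in 10 genes: Mrpl1, Mrpl13, Mrpl15, Mrpl27, Mrpl38, Mrpl47, Mrpl48, Mrpl51, Mrps15 and Mrps31. Mrpl15 held 5 of the 14, and the only 2 with an unadjusted p below 0.05. Its brightest probe set was level (0.05 ± 0.11), while a dimmer one had 8.14 and 7.70 in EphB2 High cells, 8.15 and 7.86 in EphB2 Medium cells and 9.13 and 8.81 in EphB2 Low cells (-1.05 ± 0.21, limma adjusted p over all probe sets = 0.0141). Whether these probe sets measure different transcripts of Mrpl15 was not tested. Probe sets of the same sign could differ in call too: in 8 genes a further probe set was called higher while the one used was not. For Mrpl57 a dimmer one rose by 0.92 ± 0.22 (limma adjusted p over all probe sets = 0.0227). For Mrpl54 one with a mean level of 4.86 was at -0.82 ± 0.18 (limma adjusted p over all probe sets = 0.0180).

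Between EphB2 Medium and EphB2 Low cells, 14 genes rose (18.4%, beside 14.6% of all genes called higher), none fell, beside 10.1% called lower, and the median was 0.25 (1.19-fold), beside -0.01 for all genes. The 14 are all among the 30, with which they share the EphB2 Low arrays. They comprise 6 of the 47 large (12.8%) and 8 of the 29 small subunit genes (27.6%), so the large subunit share was below the 14.6% of all genes. Both Medium arrays were above both Low arrays for 57 genes, beside 32.5% of all genes, and below for 2, beside 29.6%. Mrpl19 rose by 0.76 ± 0.12, Mrps27 by 0.73 ± 0.16, Mrps22 by 0.68 ± 0.11 and Mrps10 by 0.64 ± 0.15 (limma adjusted p between 0.0105 and 0.0270). At the other end Mrps36 was at -0.26 ± 0.12, Mrpl54 at -0.13 ± 0.14, Mrpl55 at -0.10 ± 0.14 and Mrps21 at -0.10 ± 0.12. These calls were not stable: 0 were left without either EphB2 Medium array, 4 without either EphB2 High array, 8 without EphB2 Low replicate 1 and 2 without EphB2 Low replicate 2. In all 6 of these fits the share of the 76 genes was below that of all genes: 0 beside 4.83% and 2.24% without the first and second Medium array, 5.26% beside 11.3% without either High array, 10.5% beside 13.9% without EphB2 Low replicate 1 and 2.63% beside 8.12% without EphB2 Low replicate 2. For this comparison the fit is the same whichever EphB2 High array is left out, and these fits too have fewer residual degrees of freedom. Centring on the median of genes left 2, or 2.63% beside 9.51% of all genes.

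Between EphB2 High and EphB2 Medium cells, limma called 0 of the 76 genes, beside 1.36% of all genes (0.214% higher and 1.15% lower), and 0 had an unadjusted p below 0.05, beside 14.2% of all genes. The median was 0.08, beside 0.03 for all genes. It was 0.04 without EphB2 High replicate 1 and 0.03 without EphB2 Medium replicate 2, and 0.11 without EphB2 High replicate 2 and 0.12 without EphB2 Medium replicate 1. The highest were Mrps11 (0.28 ± 0.14), Mrpl19 (0.27 ± 0.12), Mrps26 (0.24 ± 0.12) and Mrpl48 (0.22 ± 0.11), and the lowest Mrpl34 (-0.14 ± 0.13), Mrpl10 (-0.11 ± 0.14), Mrps23 (-0.11 ± 0.12) and Mrps36 (-0.09 ± 0.12). Both EphB2 High arrays were above both EphB2 Medium arrays for 31 genes, beside 27.9% of all genes, and below for 1, beside 20.2%.

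The order High over Medium over Low held within both hybridizations for 49 of the 76 genes, 29 large and 20 small subunit genes, beside 24.3% of all genes. High exceeded Low in 68 genes in the first hybridization and 65 in the second, beside 52.7% and 50.2% of all genes, with a median of 0.33 in each. For 56 genes the step between Medium and Low was larger than that between High and Medium. A contrast of these steps, added after the data were seen, called 0 of the 76 genes (limma, 2 with an unadjusted p below 0.05, beside 11.9% of all genes), beside 0.0055% of all genes.

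The Lgr5 sort had 1 array per group, so its values stand without a replicate check. None of the 76 genes differed by 1.5-fold, beside 6.95% of all genes higher and 10.8% lower by that much. The median was -0.03, beside -0.05 for all genes, and quantile normalization turned the group's median to 0.06. Apart from Mrpl14, the genes lay between -0.32 and 0.24, and the median size of the difference was 0.08, beside 0.24 for all genes. Mrpl14, whose bacterial counterpart lies at the subunit interface, was furthest up, with 10.70 in Lgr5 High and 10.27 in Lgr5 Low cells (0.43, 1.35-fold). Mrpl50 (0.24), Mrps17 (0.18) and Mrps33 (0.17) followed. Furthest down were Mrpl20, with 11.99 in Lgr5 High and 12.30 in Lgr5 Low cells (-0.32), Mrpl54 (-0.30), Mrpl55 (-0.27) and Mrps34 (-0.22). The genes with the largest EphB2 differences were near level in this sort, at 0.09 for Mrps10, 0.06 for Mrpl19 and for Mrps22, and -0.08 for Mrps27.

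The difference between the sorts was tested over all 8 arrays, also an addition made after the data were seen. The EphB2 difference between High and Low less the Lgr5 difference was called in 0 of the 76 genes by limma, beside 0.181% of all genes, 0.044% with the EphB2 difference the larger. An unadjusted p was below 0.05 in 14 of the 76, all with the larger EphB2 difference, and in 3898 of the 18193 genes in either direction. The share of the 76 genes was thus below that of all genes. Mrpl19 had the lowest adjusted p (0.96 ± 0.21, limma adjusted p = 0.0964). This test assumes that the lone Lgr5 arrays vary like the others, and the sort cannot be told apart from the separate hybridization date or from any separate normalization. The low groups were also unlike. Over all probe sets Lgr5 Low correlated at 0.9866 and 0.9858 with the EphB2 Medium arrays, and at 0.9745 and 0.9663 with the EphB2 Low arrays. Its crypt base sum of 15932 was above those of EphB2 Medium (13334 and 14107) and EphB2 Low (6449 and 4689). The Lgr5 difference was not tested against that between EphB2 High and Medium, where the group's median was 0.08.

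**Figure D3:**
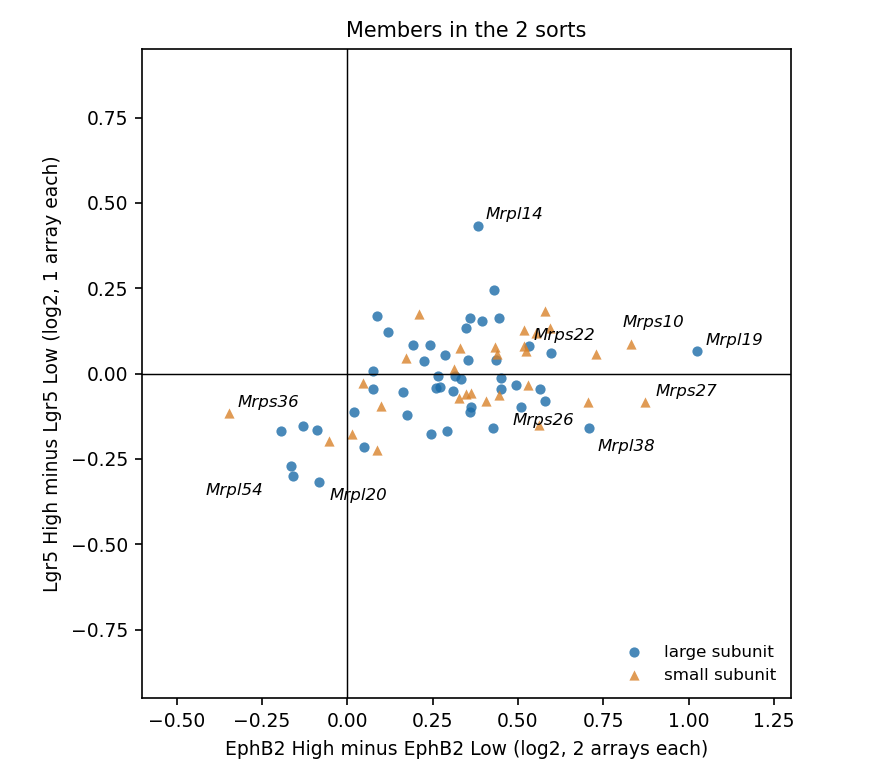
Difference between High and Low cells of the EphB2 sort (horizontal, log2, 2 arrays per group) and of the Lgr5 sort (vertical, log2, 1 array per group) for large (circles) and small (triangles) subunit genes. Points spread from -0.35 to 1.02 along the EphB2 axis and from -0.32 to 0.43 along the Lgr5 axis.

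Lists of genes that work with this ribosome were counted in the same way between EphB2 High and EphB2 Low cells, beside the 22.0% of all genes called higher and 15.3% called lower. All 4 measured ribosomal proteins with other names rose: Chchd1 (0.83 ± 0.13), Gadd45gip1 (0.71 ± 0.17), Ptcd3 (0.66 ± 0.11), another pentatricopeptide repeat protein, and the GTP-binding protein Dap3 (0.44 ± 0.12). Of 27 genes for assembly of the ribosome and modification of its RNA, 16 rose and 1 fell (median 0.53). The assembly factor Rcc1l had 9.59 and 9.62 in EphB2 High cells, 9.28 and 9.29 in EphB2 Medium cells and 8.47 and 8.47 in EphB2 Low cells (1.13 ± 0.10, limma adjusted p = 0.00103). Noa1, a GTPase, rose by 0.96 ± 0.16, the RNA methyltransferase Tfb1m by 0.91 ± 0.12 and the RNA-binding protein Fastkd2 by 0.89 ± 0.14. The gene that fell was Trub2, for a pseudouridine synthase (-0.53 ± 0.16), named after its value was seen.

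Of 19 mitochondrial tRNA synthetases, 14 rose and none fell (median 0.55), among them Pars2 (0.96 ± 0.15), Mars2 (0.83 ± 0.15), Yars2 (0.76 ± 0.12) and Tars2 (0.68 ± 0.13). Of 11 translation factors, 3 rose and none fell (median 0.26): the elongation factor Tsfm (0.95 ± 0.20), the deformylase Pdf (0.90 ± 0.12) and the recycling factor Mrrf (0.65 ± 0.13), while the elongation factor Guf1 was at 0.51 ± 0.18 and did not pass. Of 19 genes that copy, transcribe or process mitochondrial DNA and its RNA, 13 rose and 2 fell (median 0.67). The helicase Twnk rose by 1.41 ± 0.15, the RNase P subunits Prorp and Trmt10c by 1.35 ± 0.13 and 0.85 ± 0.11, and Mterf2 fell by 1.33 (SE 0.13). The other that fell, the polymerase subunit Polg2 (-0.79 ± 0.12), was named after its value was seen. In the Lgr5 sort 1 gene of these 5 lists, of the 27 in the assembly list, differed by 1.5-fold and was lower in Lgr5 High cells. Of all genes 6.95% were higher and 10.8% lower by that much. The list medians lay between -0.06 and 0.07.

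These counts too changed when single arrays were left out. With 1 array left out, 7 to 15 assembly genes, 4 to 12 synthetases, 1 to 3 translation factors, 8 to 13 genes of mitochondrial DNA and 2 to 3 of the other ribosomal proteins were called higher, beside 2476 to 3639 of the 18193 genes, and Trub2 was not called. The fewest synthetases were left without either EphB2 High array, and the fewest genes of mitochondrial DNA without EphB2 High replicate 2.

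The ribosome of the cytosol and the respiratory chain were counted beside these lists, and the difference between lists was not tested. Of 47 cytosolic ribosomal protein genes, 4 rose and none fell (median 0.13), beside 22.0% of all genes called higher and 15.3% called lower. Both EphB2 High arrays were above both EphB2 Low arrays for 40 of the 47 (85.1%), beside 77.6% of the 76 genes and 36.4% of all genes. Of 82 nuclear genes for subunits of oxidative phosphorylation, 2 rose and 5 fell (median -0.11). Both High arrays were below both Low arrays for 52 of the 82, beside 31.7% of all genes, and above for 7. The counts of calls changed with the fit: with an intensity trend 20 cytosolic genes rose, and 2 respiratory genes rose and 19 fell. That fit called 23.8% of all genes higher. With arrays centred on the median of genes, 1 respiratory gene rose and 31 fell, and the median of the cytosolic list was -0.15. This centring moved the median of all genes to -0.28 and called 14.8% of all genes higher. The share of all genes called lower is not given here for these 2 fits.

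**Figure D4:**
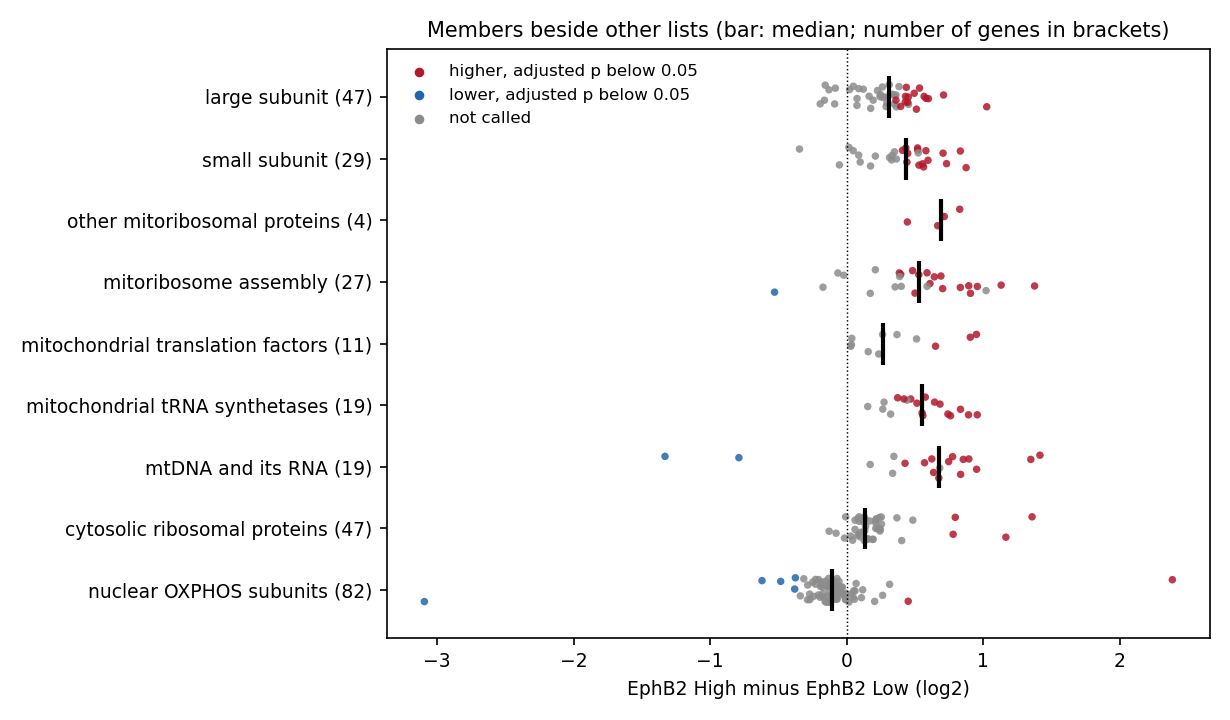
Difference between EphB2 High and EphB2 Low cells (log2) for each gene of the ribosomal subunits and of 7 other lists, with the list's median as a bar and the number of genes in brackets. Medians run from 0.69 for the other ribosomal proteins to -0.11 for oxidative phosphorylation, with 0.31 for large and 0.43 for small subunit genes.

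Of 9 regulators known to act on nuclear genes of mitochondria, 3 rose (33.3%) and 2 fell (22.2%). Of all genes 22.0% were called higher and 15.3% lower. Myc, a transcription factor of growing cells, had 10.95 and 11.09 in EphB2 High cells, 10.42 and 10.59 in EphB2 Medium cells and 9.14 and 7.68 in EphB2 Low cells (2.61 ± 0.44, limma adjusted p = 0.00636). The coactivator Pprc1 rose by 1.83 ± 0.18 and Gabpb1, a subunit of the ETS factor GABP, by 0.85 ± 0.13. In the other direction the coactivator Ppargc1a had 9.24 and 9.02 in EphB2 High cells, 10.43 and 10.21 in EphB2 Medium cells and 11.21 and 11.13 in EphB2 Low cells (-2.04 ± 0.14, limma adjusted p = 0.000465), and the nuclear receptor Esrra fell by 1.07 (SE 0.12). Among the listed genes for factors whose motifs are marked in the promoters above, Gabpb1 is the one that passed. ETS factors other than GABP were not listed. Gabpa, for the DNA-binding subunit of GABP, was at 0.46 ± 0.15, Yy1 at 0.14 ± 0.11 and Nrf1 at 0.09 ± 0.12, which did not pass and were named after their values were seen. In the Lgr5 sort 1 of the 9 regulators was higher and 2 were lower by 1.5-fold, beside 6.95% and 10.8% of all genes. Myc had 11.70 in Lgr5 High and 10.56 in Lgr5 Low cells, Esrra 8.57 in Lgr5 High and 9.53 in Lgr5 Low cells, and the coactivator Ppargc1b, named after its value was seen, 9.74 in Lgr5 High and 10.43 in Lgr5 Low cells. Ppargc1a, with 9.53 in Lgr5 High and 9.91 in Lgr5 Low cells, did not reach that fold.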

How the data were processed

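The deposited table holds log2 signals of 45101 probe sets on 8 Affymetrix arrays, which the authors made with RMA, per the submitters' processing notes, with no version in the sources used here. RMA makes the distributions of arrays alike, so total RNA per cell cannot be compared, and the precision is limited by the number of arrays. Of the probe sets, 34945 name 1 gene and were used, 932 name several, 9160 name none in the annotation given, and 64 are controls. Symbols were updated through RefSeq gene IDs, where 34741 of these probe sets matched.

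limma (version 3.58.1, R 4.3.3) was fitted to the 6 EphB2 arrays on group alone, with 3 residual degrees of freedom, 2-sided, and was checked on simulated data. There it called 47 of 100 genes shifted 2-fold, 83 of 100 shifted 4-fold and 10 of 17993 not shifted. The simulation had far fewer changed genes than the data. A gene that did not pass may thus still differ, above all where the difference is below 2-fold. Errors are its standard errors, with n = 2 arrays per group. Per the labels, EphB2 arrays of the same replicate number have the same hybridization date. They were paired in the counts within hybridizations and in the alternative with the hybridization as a block, but not in the main fit. Their deviations from group means correlated at 0.452 (High and Medium), 0.131 (High and Low) and 0.212 (Medium and Low). Alternatives were the hybridization as a block, each array left out, quantile normalization, dim genes removed, the mean of probe sets, an intensity trend, platform symbols, structural subunits and 2 centrings.

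The genes and lists were chosen with earlier results of these data known. The rule named, per subunit, the 6 highest and 3 lowest genes between EphB2 High and Low, up to 4 each way in other comparisons, genes of set role, up to 4 per list by p, genes with a discordant probe set, and the brightest and dimmest 2.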

Additional observations from a re-analysis of the deposited data

How the results depend on the processing

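With 2 arrays per group, calls near the threshold move with nearly every choice. Fits with an array left out have fewer residual degrees of freedom. Those without one or the other array of a group outside the comparison are the same fit. With the replicate block for the hybridizations, 35 genes were called higher between EphB2 High and Low (30 without it), beside 23.8% of all genes. The block gave 20 between Medium and Low (14 without it), beside 16.3%, and 0 between High and Medium, beside 0.214%. Every call made without the block in the first comparison held with it. Leaving out 1 array gave 6 to 26 calls between High and Low and 0 to 8 between Medium and Low, beside 2476 to 3639 and 407 to 2536 of the 18193 genes called higher; the share of the 76 genes was below that of all genes in 3 of the 6 fits and in all 6. Dim genes removed gave 48 (47 higher, 1 lower) and 31, beside 36.8% and 29.4% of the 9097 genes left called higher. An intensity trend gave 52 (51 higher, 1 lower) and 30, beside 23.8% and 17.2% of all genes. Centring on the median of genes gave 7 (4 higher, 3 lower) and 2, beside 14.8% and 9.51%. Centring on that of probe sets, like the other added after the data were seen, gave 17 and 8. These are 22.4% and 10.5% of the 76 genes, beside 20.4% and 13.9% of all genes. Calls between High and Medium were 0 under every alternative run. The median difference between High and Low was 0.40 with quantile normalization, 0.33 with the mean of probe sets, 0.0615 and 0.30 with the centrings on genes and on probe sets, and 0.31 to 0.37 with an array left out. Between Medium and Low the same were 0.27, 0.27, 0.0215 and 0.23, and 0.21 to 0.30, and between High and Medium 0.0873, 0.0657, 0.021 and 0.0521, and 0.0317 to 0.12. For the Lgr5 arrays the median was 0.0564 with quantile normalization, -0.0072 with the mean of probe sets and -0.0449 centred on genes. The gap of large less small subunit medians was -0.16 to -0.0424 with an array left out, and for the Lgr5 arrays -0.0725 with the mean of probe sets. The causes were not tested. Over the named genes, comparisons and settings, 165 values lost a call, 37 gained one and none reversed.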
